A study of Homo sapiens with 6 samples.

Results

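The MHC class I antigen presentation genes are the 9 genes HLA-B, HLA-C, HLA-E, HLA-F, B2M, TAP1, TAP2, TAPBP and NLRC5, taken by symbol and Entrez gene ID from the 27259 genes of the RNA-seq tables. All 9 were detected in every library and passed the filter on low counts. Other class I heavy chain genes were not analysed here. The libraries were made from U87MG, an established human glioblastoma cell line grown in serum-containing medium. They fall into U87MG-control (control lentivirus, n = 3) and U87MG-LMO2 (LMO2 lentivirus, n = 3), with 24 h of infection in both groups. LMO2 encodes a LIM-domain adaptor protein. Per the study's methods, it was expressed from a vector with the CMV promoter and a puromycin marker. Reads of the vector and of the cell's own gene cannot be separated in its level. What the control virus carried is not given in the sources used here. Nothing states that the libraries of a group came from separate cultures, so p-values measure the spread between these libraries, which may be technical.

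MHC class I molecules carry peptides from the inside of the cell to its surface, where CD8+ T cells and natural killer cells read them. A heavy chain (HLA-B, HLA-C, HLA-E or HLA-F) pairs with the light chain β2-microglobulin, the product of B2M. TAP1 and TAP2 form the transporter that pumps peptides from the cytosol into the endoplasmic reticulum, and tapasin, the product of TAPBP, holds the empty heavy chain at that transporter. NLRC5 is the class I transactivator: it has no DNA-binding domain of its own and acts through RFX, CREB/ATF and NF-Y factors bound to an upstream module of class I promoters. Those promoters also carry elements for NF-kB and interferon regulatory factors, and interferon is the best known inducer of the whole pathway. Glioblastoma cells present antigen through class I as most nucleated cells do.

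The promoters of HLA-B, HLA-C, HLA-F, B2M and TAP1 are shown as examples of heavy chain, light chain and transporter genes, to set elements that NLRC5 partners, NF-kB and interferon regulatory factors are known to use beside the RNA values of the same genes. RefSeq promoters of build GRCh38.p14 were found for 7 of the 9 genes, without HLA-E and NLRC5. Each sequence below runs on the gene's own strand from 200 bases before the annotated start up to that start. Capitals mark matches, on either strand, to the core of the interferon-stimulated response element (GAAA, any 2 bases, GAAA), an NF-kB motif (GGGA, any base, T, any 2 bases, CC), the core of the cyclic AMP response element (TGACG) and the CCAAT box (CCAAT). The sequences are those of the reference genome and not of the alleles of U87MG.
HLA-B, minus strand of chr6:31357180-31357379: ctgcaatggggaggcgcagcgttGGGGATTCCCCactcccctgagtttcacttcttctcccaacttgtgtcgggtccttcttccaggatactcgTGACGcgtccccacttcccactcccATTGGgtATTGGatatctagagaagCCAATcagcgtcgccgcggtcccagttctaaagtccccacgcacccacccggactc
HLA-C, minus strand of chr6:31272093-31272292: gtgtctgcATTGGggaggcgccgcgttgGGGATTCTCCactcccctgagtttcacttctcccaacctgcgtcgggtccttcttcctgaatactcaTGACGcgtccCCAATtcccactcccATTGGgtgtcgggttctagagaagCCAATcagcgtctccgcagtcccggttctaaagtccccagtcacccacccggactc
HLA-F, plus strand of chr6:29723234-29723433: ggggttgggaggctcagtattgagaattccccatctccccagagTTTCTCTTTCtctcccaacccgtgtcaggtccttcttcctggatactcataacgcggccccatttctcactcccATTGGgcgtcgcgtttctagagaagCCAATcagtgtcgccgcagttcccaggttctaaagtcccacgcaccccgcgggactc
B2M, plus strand of chr15:44711317-44711516: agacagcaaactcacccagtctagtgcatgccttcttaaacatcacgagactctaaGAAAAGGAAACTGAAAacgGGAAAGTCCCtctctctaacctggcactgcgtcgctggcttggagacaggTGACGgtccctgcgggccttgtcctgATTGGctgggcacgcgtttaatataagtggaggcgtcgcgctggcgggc
TAP1, minus strand of chr6:32853705-32853904: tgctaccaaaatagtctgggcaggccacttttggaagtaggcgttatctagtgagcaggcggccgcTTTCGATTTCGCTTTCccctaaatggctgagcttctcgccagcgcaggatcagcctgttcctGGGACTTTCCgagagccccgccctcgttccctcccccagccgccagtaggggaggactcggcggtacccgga

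In the 250 bases before the start, the response element core was found in 5 of the 7 genes (HLA-F, B2M, TAP1, TAP2 and TAPBP), against 3.02% of the 35116 promoter windows of the RefSeq table. The NF-kB motif was found in 4 of 7 (HLA-B, HLA-C, B2M and TAP1), against 4.46% of the windows. TGACG was found in 4 of 7 (HLA-B, HLA-C, B2M and TAP2) against 21.2%, and CCAAT in 5 of 7 (HLA-B, HLA-C, HLA-F, B2M and TAP1) against 32% of the windows. In HLA-B and HLA-C, TGACG lay from 106 to 102 and from 105 to 101 bases before the start. The CCAAT boxes after it lay from 81 to 77, 74 to 70 and 56 to 52 bases before the start in HLA-B. In HLA-C they lay from 95 to 91, 80 to 76 and 56 to 52 bases before it. Those from 81 to 77 and 74 to 70 in HLA-B and from 80 to 76 in HLA-C were on the opposite strand. The B2M promoter held both kinds of element as well, with 2 overlapping response element cores between 144 and 129 bases, an NF-kB motif from 125 to 116 bases and TGACG from 75 to 71 bases before the start. HLA-B and HLA-C promoters were 89.0% identical over the aligned windows, whereas HLA-B and B2M were 47.3% identical. In HLA-B the pair of NF-kB matches lies on opposite strands of 1 site, and in TAP1 the pair of response element cores overlaps. A second annotated start of TAP1 held none of these letters. Such matches describe the letters only. A stretch that departs from these letters was not counted, such as tttcacttct after the NF-kB motif of HLA-B and HLA-C. A promoter without a match may thus still hold such an element.

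The control libraries held 11428432 to 13537284 expected counts and the U87MG-LMO2 libraries 14630627 to 17892955, with no overlap in depth. LMO2 itself (4005) rose from 0.596 ± 0.213 CPM (read counts scaled to a common library size, SD, n = 3) to 505.9 ± 322 CPM (edgeR adjusted p 4.13e-04). Its level was uneven over U87MG-LMO2 replicates 1 to 3, at 333, 307 and 877.9 CPM. Of the glioma markers listed, VIM, CD44 and NES were present at 11040, 1157 and 44.4 CPM in U87MG-control, while OLIG2 was near 1 CPM and SOX2, S100B and FABP7 did not pass the filter on low counts. GFAP was among 134 genes set aside because 1 table was damaged, and no gene described below was among them. Of 10 leukocyte markers in the tables, 4 had at most 3 counts in every library, PTPRC was at 0.496 CPM in U87MG-control, and the summed level, mostly CD68, was 408.4 to 539 CPM in U87MG-control and 308.5 to 588.7 CPM in U87MG-LMO2. These are bulk RNA libraries, in which fewer cells of a type and less RNA per cell cannot be told apart.

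NLRC5 and HLA-B rose in U87MG-LMO2, and they were the 2 genes of the 9 called higher at an edgeR adjusted p under 0.05, against 4.72% of the 16092 genes tested (7.48% in either direction). No gene of the 9 was called lower, against 2.75% of the tested genes. None of the 9 was lower at an unadjusted p under 0.05 in edgeR, but the share of all tested genes at that level was not computed. DESeq2 also called 0 of the 9 lower, against 691 of all 16092 tested genes. So did limma, against 369 of them on log2(FPKM + 1) and 363 on log2(FPKM + 0.1). In 4 of the 9 (HLA-B, HLA-C, HLA-E and NLRC5) every U87MG-LMO2 library was above every control library in CPM, against 17.5% of the tested genes (34.1% apart in either direction). The median log2 fold change of the 9 genes was 0.38, and that of all tested genes was -0.011. All 9 estimates were above 0, the smallest of them that of B2M.

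**Figure D1:**
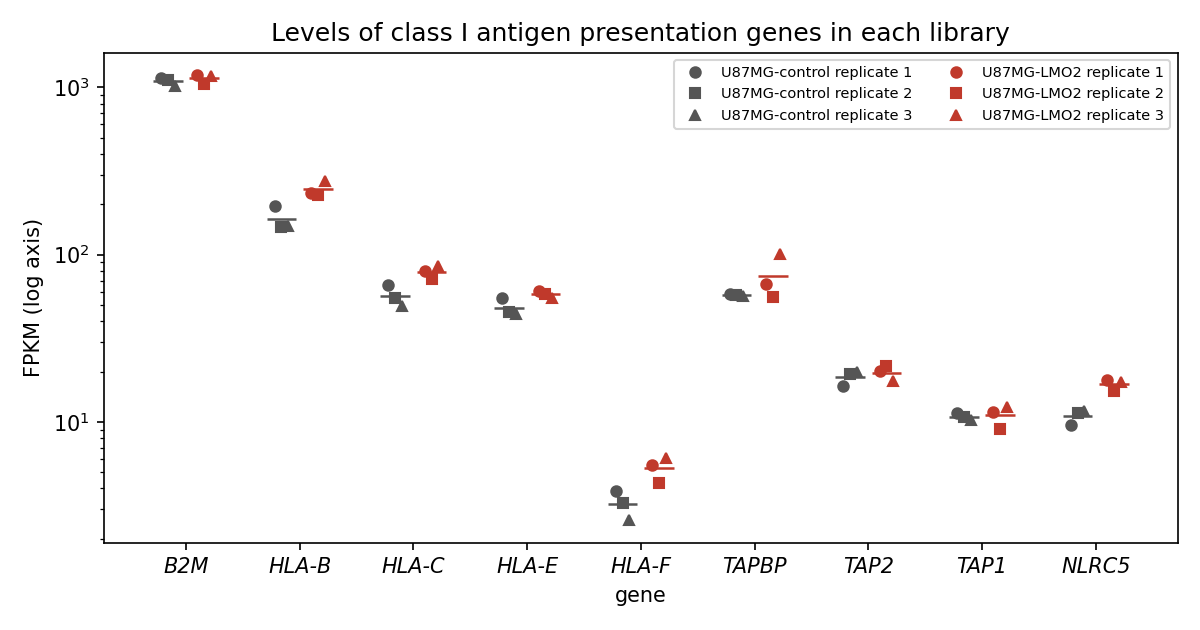
Level of each of the 9 genes in each library, in FPKM on a log axis, with 3 U87MG-control (grey) and 3 U87MG-LMO2 (red) libraries per gene and a line at each mean. B2M stood highest in both groups, at 1088 and 1133 FPKM on average. The U87MG-LMO2 points of HLA-B, HLA-C, HLA-E, HLA-F and NLRC5 all lay above the U87MG-control points of the same gene. The share of all tested genes for which this held in FPKM was not computed. In CPM it was 17.5%, and there the groups overlapped for HLA-F.

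Levels were compared between genes as FPKM, which is scaled to gene length as well as to depth. B2M was the most abundant in U87MG-control at 1088 ± 57.6 FPKM (SD, n = 3), followed by HLA-B at 163.2 ± 27.1 FPKM. TAPBP (57.4 ± 0.991 FPKM), HLA-C (56.7 ± 8.56 FPKM) and HLA-E (48.1 ± 5.75 FPKM) came next, and the ranges of neighbours in this order overlapped. TAP2 was at 18.5 ± 1.92 FPKM. NLRC5 (10.8 ± 1.06 FPKM) and TAP1 (10.8 ± 0.55 FPKM) overlapped each other, and HLA-F was the lowest at 3.25 ± 0.651 FPKM. B2M FPKM was 4.06 ± 0.455 times the summed FPKM of the 4 heavy chains, of which HLA-B was the most abundant. In U87MG-LMO2 the order was the same except that HLA-C (78.8 ± 6.82 FPKM) stood above TAPBP (74.5 ± 23.2 FPKM), with overlapping ranges, and NLRC5 (16.8 ± 1.37 FPKM) separated from TAP1 (10.9 ± 1.66 FPKM) and overlapped TAP2 (19.7 ± 2.1 FPKM).

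Among the heavy chains, HLA-B (3106), which presents peptides to CD8+ T cells, had 293.7, 221.6 and 225.0 CPM in U87MG-control replicates 1 to 3. It had 350.4, 348.7 and 450.8 CPM in U87MG-LMO2 replicates 1 to 3. The groups did not overlap, and the gap between the highest control and the lowest U87MG-LMO2 library was smaller than the spread within either group. HLA-B rose 1.554-fold (log2 fold change 0.64, SE 0.15, 95% interval 0.29 to 0.98, edgeR adjusted p 0.0405). The edgeR call was lost after a correction for GC content (log2 fold change 0.45, adjusted p 0.0912) and when any control library or U87MG-LMO2 replicate 1 was left out, with adjusted p up to 0.162 over the libraries left out.

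HLA-C (3107), which presents peptides and is also the main ligand of inhibitory killer cell receptors, had 103.4, 85.9 and 77.0 CPM in U87MG-control. It had 124.0, 112.7 and 145.4 CPM in U87MG-LMO2. As for HLA-B, U87MG-control replicate 1 was the highest control and U87MG-LMO2 replicate 3 the highest of all. HLA-C differed by a log2 fold change of 0.52 (SE 0.14, 95% interval 0.20 to 0.84), and its edgeR adjusted p of 0.0589 did not pass. DESeq2 gave HLA-C an adjusted p of 0.0159, edgeR with no filter on low counts gave 0.0316, and edgeR without U87MG-LMO2 replicate 3 gave 0.0465. HLA-C was not called with any other library left out, with edgeR adjusted p up to 0.211 (without U87MG-control replicate 3). It was also not called by limma (adjusted p 0.0676 on log2(FPKM + 1) and 0.0695 on log2(FPKM + 0.1)).

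HLA-E (3133) presents leader peptides of other class I chains to the NKG2A receptor of natural killer cells. It had 146.1, 120.2 and 118.4 CPM in U87MG-control and 161.1, 156.0 and 161.2 CPM in U87MG-LMO2. The U87MG-LMO2 libraries lay close together and above the control libraries. Its difference did not pass the test (log2 fold change 0.31, SE 0.11, 95% interval 0.07 to 0.56, edgeR adjusted p 0.113).

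HLA-F (3134), a class I gene of low surface expression, had 6.59, 5.62 and 4.84 CPM in U87MG-control and 7.50, 6.0 and 8.62 CPM in U87MG-LMO2. The groups overlapped in CPM (log2 fold change 0.38, SE 0.20, edgeR adjusted p 0.266). In FPKM they did not overlap, at 3.88, 3.29 and 2.58 FPKM against 5.52, 4.33 and 6.08 FPKM. FPKM divides by a gene length that the tables list per library, and that can vary with the mix of transcripts assigned to a gene. That length was 1783.2 ± 87.6 bases for HLA-F in U87MG-control and 1371.9 ± 42.3 bases in U87MG-LMO2 (SD, n = 3), a ratio of 0.769. The lengths of the groups did not overlap, which held for 11.6% of 16022 tested genes with a length in every library, and for 5.22% with the shorter length in U87MG-LMO2. The exact permutation p for the length was 0.1, the smallest that 3 against 3 libraries can give. HLA-F thus differed by 29.6% in counts and by 63.4% in FPKM. Lengths of B2M (ratio 0.959), TAP1 (1.053) and NLRC5 (1.048) also did not overlap between the groups, while those of HLA-B, HLA-C, HLA-E, TAP2 and TAPBP did.

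**Figure D2:**
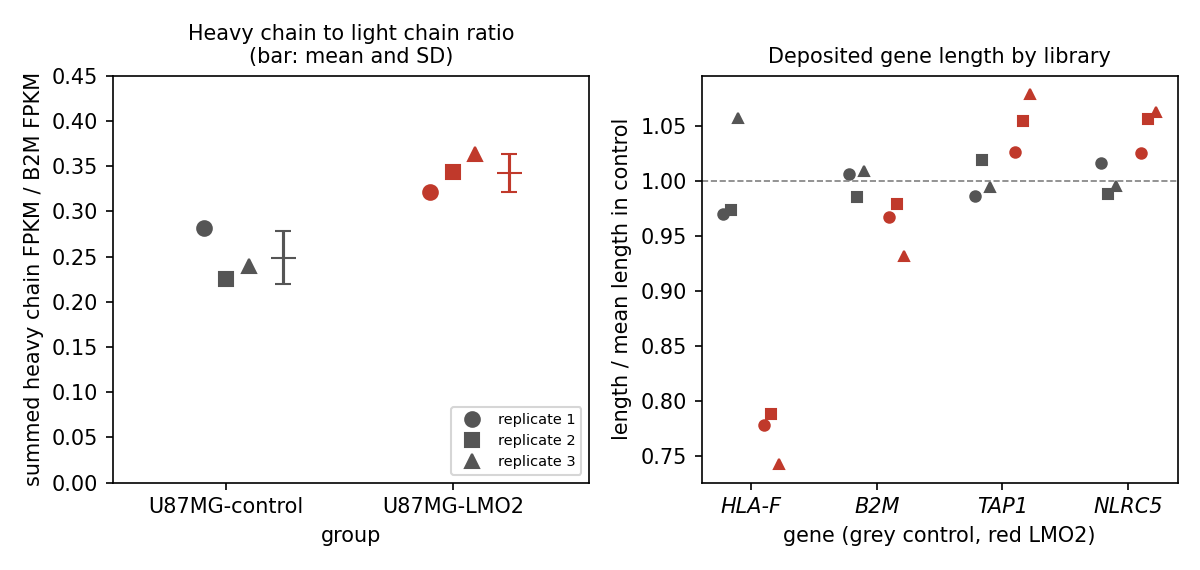
Left, summed FPKM of HLA-B, HLA-C, HLA-E and HLA-F divided by the FPKM of B2M in each library, with the group mean and SD. Right, gene length in the tables divided by its mean over U87MG-control, for HLA-F, B2M, TAP1 and NLRC5 in each library (grey U87MG-control, red U87MG-LMO2), on an axis that does not start at 0. The 3 U87MG-LMO2 libraries lay above the control libraries in the ratio, and below them in the length of HLA-F and B2M.

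Heavy chain genes are close copies, so reads can fall on more than 1 of them. In GENCODE v29 transcripts, 2.54% of the 50-base windows of HLA-B, 6.71% of those of HLA-C, 5.13% of those of HLA-E and 1.7% of those of HLA-F also occurred in another gene. The share was 0 for B2M and NLRC5, 1.07% for TAP1, 6.09% for TAPBP and 35.8% for TAP2. The alleles of U87MG differ from the reference, and how reads were split between these genes was not tested. The summed FPKM of the 4 chains can depend on how reads were split among them, because each gene has its own length. Their summed counts do not depend on that split, but they do depend on reads shared with other genes. For example, HLA-E shared 131 windows with any other gene and 22 with HLA-F, 26 with HLA-C and 1 with HLA-B. Summed levels were 549.8, 433.3 and 425.3 CPM in U87MG-control and 642.9, 623.5 and 766 CPM in U87MG-LMO2. The sum rose 1.448-fold in U87MG-LMO2 (log2 fold change 0.53, SE 0.13, 95% interval 0.23 to 0.84, edgeR adjusted p 0.0478). When 1 library was left out, the edgeR adjusted p of the sum ran from 0.0297 to 0.193, and it was under 0.05 only without U87MG-LMO2 replicate 3. After the GC correction the sum had a log2 fold change of 0.34 (adjusted p 0.142). Within the sum, HLA-B made up 60.1 ± 1.33% of the FPKM in U87MG-control and 63.3 ± 1.94% in U87MG-LMO2, and HLA-E 17.8 ± 0.545% and 15.1 ± 1.70%.

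The light chain differed little between the groups. B2M (567) had 644.5, 614.5 and 583.3 CPM in U87MG-control and 639.0, 585.1 and 664.6 CPM in U87MG-LMO2. The groups overlapped, and the log2 fold change of B2M was 0.04 (SE 0.10, 95% interval -0.18 to 0.26, edgeR adjusted p 0.844). Summed heavy chain FPKM per B2M FPKM was 0.282, 0.225 and 0.240 in U87MG-control and 0.321, 0.343 and 0.363 in U87MG-LMO2. The ratio was higher in every U87MG-LMO2 library, by 1.382-fold, with a log2 difference of 0.47 and an exact permutation p of 0.1, the smallest possible. With HLA-B and HLA-C alone in the sum the difference was 1.425-fold. In CPM it was 1.412-fold, and in CPM after the GC correction it was 1.085-fold, with overlapping groups (0.878 ± 0.155 in U87MG-control and 0.950 ± 0.138 in U87MG-LMO2, SD, n = 3) and an exact permutation p of 0.5. GC content differed between the chains, at 59.7% for HLA-B, 61.6% for HLA-C and 61.5% for HLA-E against 41.2% for B2M and a median of 49.8% over the tested genes with a value. After the GC correction the log2 fold changes of HLA-C, HLA-E, HLA-F and B2M were 0.30, 0.11, 0.24 and 0.24, and edgeR called none of them. The log2 difference of the CPM ratio was thus 0.50 without the GC correction and 0.12 with it. Without the correction the CPM ratio was 0.762 ± 0.079 in U87MG-control and 1.075 ± 0.074 in U87MG-LMO2 (SD, n = 3). Whether GC content accounts for the higher ratio was not tested.

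**Figure D3:**
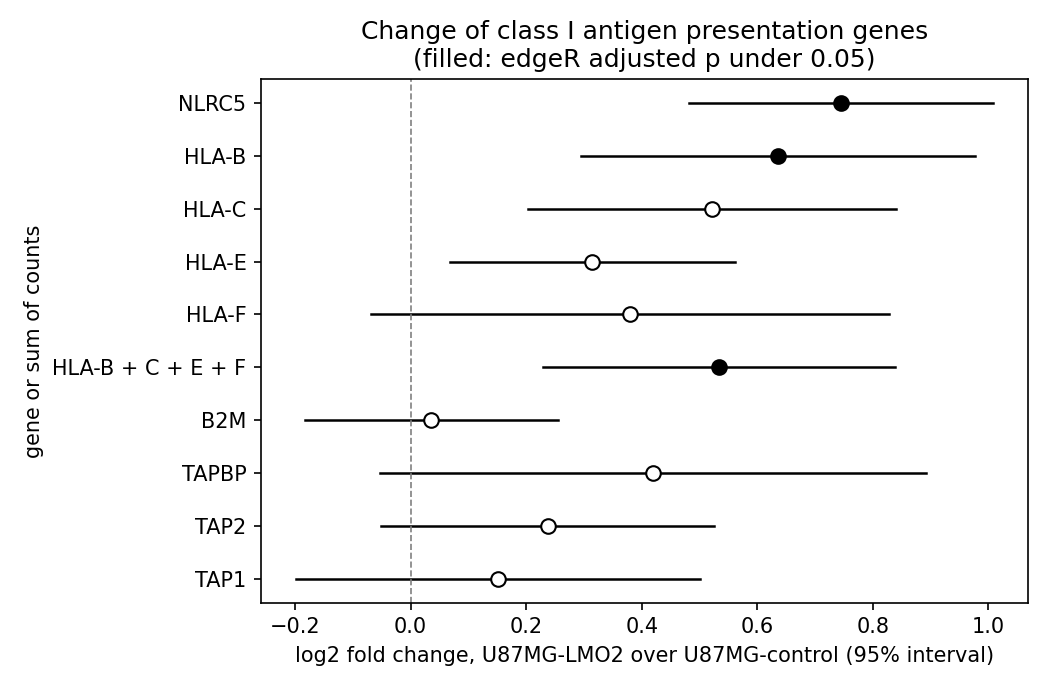
Log2 fold change of each of the 9 genes and of the summed counts of the 4 heavy chains, U87MG-LMO2 over U87MG-control, with 95% intervals from edgeR and filled points for an adjusted p under 0.05. NLRC5 (0.74), HLA-B (0.64) and the sum (0.53) are filled, and B2M (0.04) lies nearest to 0.

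Of the peptide transporter, TAP1 (6890) had 30.6, 30.1 and 27.8 CPM in U87MG-control and 32.1, 26.4 and 39.7 CPM in U87MG-LMO2. TAP2 (6891) had 52.5, 63.7 and 62.9 CPM in U87MG-control and 72.7, 77.8 and 60.7 CPM in U87MG-LMO2. In both genes the groups overlapped, and the subunits did not follow each other over the U87MG-LMO2 libraries: replicate 3 was the highest for TAP1 and the lowest for TAP2. The log2 fold changes were 0.15 (95% interval -0.20 to 0.50, edgeR adjusted p 0.574) for TAP1 and 0.24 (-0.05 to 0.53, adjusted p 0.277) for TAP2. For TAP2, 35.8% of the 50-base windows also occurred in another gene, the largest share among the 9 genes.

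TAPBP (6892) had 210.2, 205.1 and 205.0 CPM in U87MG-control and 242.3, 202.7 and 384.5 CPM in U87MG-LMO2. U87MG-LMO2 replicate 3 was the highest, replicate 1 lay above the controls, and replicate 2 lay just below them. The log2 fold change of 0.42 (SE 0.21, edgeR adjusted p 0.245) fell to 0.11 without U87MG-LMO2 replicate 3.

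NLRC5 (84166), the transactivator, had 52.2, 59.5 and 61.4 CPM in U87MG-control and 96.9, 86.4 and 107.1 CPM in U87MG-LMO2. The groups did not overlap, and the gap between them was wider than the range within either group. NLRC5 rose 1.676-fold (log2 fold change 0.74, SE 0.12, 95% interval 0.48 to 1.01, edgeR adjusted p 0.0114), the largest difference of the 9 genes. After the GC correction NLRC5 had a log2 fold change of 0.62 (edgeR adjusted p 0.011). When any control library or U87MG-LMO2 replicate 1 was left out, its edgeR adjusted p lay between 0.0555 and 0.0597, with log2 fold changes from 0.67 to 0.82 over all libraries left out.

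**Figure D4:**
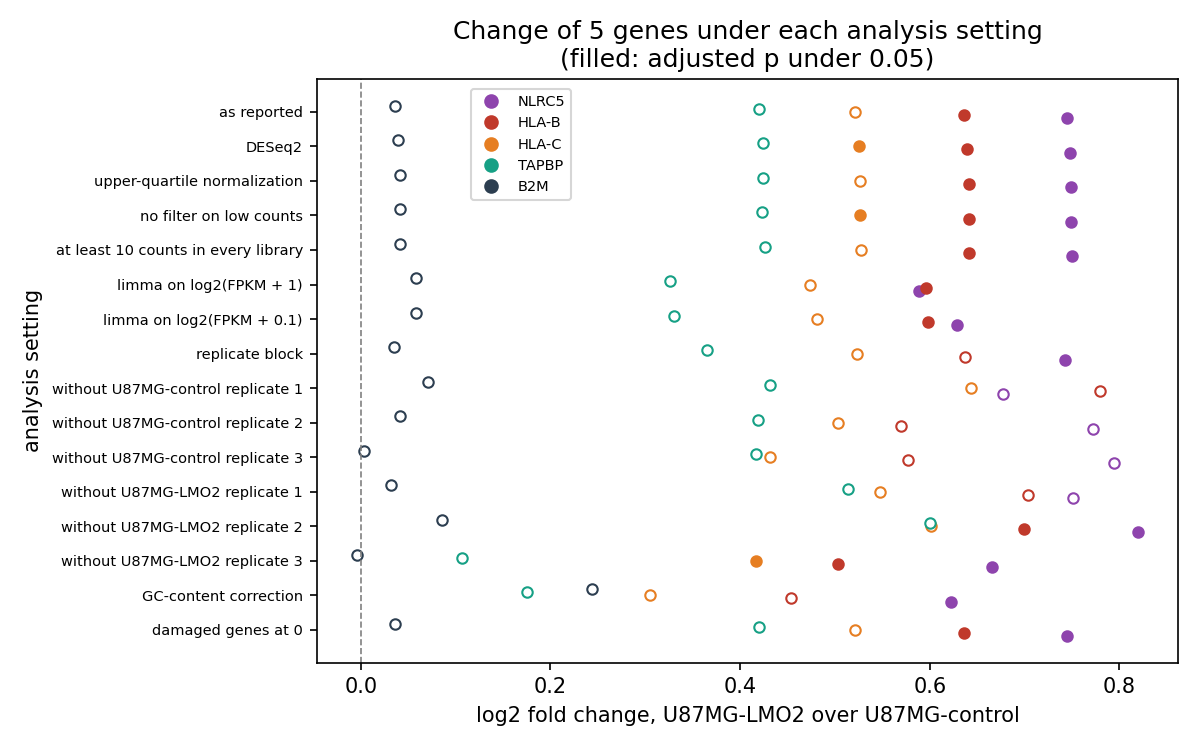
Log2 fold change, U87MG-LMO2 over U87MG-control, of NLRC5, HLA-B, HLA-C, TAPBP and B2M as reported and under 15 other analysis settings, with filled points for an adjusted p under 0.05. NLRC5 was filled under 11 and HLA-B under 9 of the other settings, TAPBP and B2M under none.

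The class II genes present peptides from outside the cell, mostly in professional antigen presenting cells, and are switched on by CIITA, which like NLRC5 works through RFX, CREB/ATF and NF-Y factors. Of 9 class II genes, 3 rose (CIITA, HLA-DRA and CD74) and 0 fell, against 4.72% and 2.75% of the tested genes, with a median log2 fold change of 0.41. No class II gene was lower at an unadjusted p under 0.05 in edgeR, nor called lower by DESeq2 or limma. The share of all tested genes at that unadjusted p was not computed. CIITA had 32.9, 38.6 and 38.1 CPM in U87MG-control and 54.3, 54.3 and 66.0 CPM in U87MG-LMO2 (log2 fold change 0.67, edgeR adjusted p 0.0188). HLA-DRA, the class II alpha chain, rose from 34.8 ± 3.07 to 50.6 ± 2.83 CPM (log2 fold change 0.54, edgeR adjusted p 0.0262, SD with n = 3). CD74, the invariant chain that fills the class II groove until peptide is loaded, rose from 151.1 ± 9.55 to 218 ± 36.1 CPM (log2 fold change 0.53, edgeR adjusted p 0.0454). After the GC correction CD74 was at 0.34 (edgeR adjusted p 0.0898), and with the damaged genes taken as 0 its adjusted p was 0.0516, so that 2 class II genes were called higher under either setting. In 7 of the 9 class II genes every U87MG-LMO2 library was above every control library, against 17.5% of the tested genes. Each of these 3 calls was lost when any control library or U87MG-LMO2 replicate 1 was left out, with edgeR adjusted p up to 0.178. These genes are also abundant in antigen presenting leukocytes. Of the leukocyte markers tested, ITGAX fell (3.26 to 1.05 CPM, edgeR adjusted p 0.0288), LYZ had 11.3 and 13.8 CPM (adjusted p 0.274) and CD68 436.6 and 400 CPM (adjusted p 0.772). Among those under the filter on low counts, PTPRC had 0.496 and 0.566 CPM, CD14 0.18 and 0.399 CPM, and CD2 0.387 and 0.733 CPM in U87MG-control and U87MG-LMO2. The part of other cells in the class II and class I values was not tested.

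The other pathway genes, 57 tested of 59 listed, gave 0 called higher and 1 called lower by edgeR, against 4.72% and 2.75% of the tested genes. Their median log2 fold change was -0.041. At an unadjusted p under 0.05, 4 were higher and 7 lower. The share of all tested genes at an unadjusted p is not given, for this list or the others. DESeq2 called 2 higher (PSMB10 and TAPBPL, named after their values were seen) and 1 lower. Over all 16092 tested genes it called 1006 higher and 691 lower. On FPKM, limma called 0 higher and 1 lower. Over all tested genes it called 521 and 369 on log2(FPKM + 1), and 512 and 363 on log2(FPKM + 0.1).

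The peptide supply list holds proteasome subunits, their activators and trimming peptidases. None of its 14 genes was called by edgeR, the median was -0.09, and 2 were higher and 1 lower at an unadjusted p under 0.05. Its most abundant genes were PSMB7, a catalytic subunit of the standard proteasome (log2 fold change -0.05, edgeR adjusted p 0.737), and PSME3, a nuclear proteasome activator (-0.02, adjusted p 0.95). None of the immunoproteasome subunits PSMB8, PSMB9 and PSMB10, picked after their values were seen, was called by edgeR. PSMB10 had 13.6, 14.4 and 13.1 CPM in U87MG-control and 18.2, 17.9 and 27.6 CPM in U87MG-LMO2 (log2 fold change 0.63, edgeR adjusted p 0.0732). PSMB8 had a log2 fold change of 0.33 (edgeR adjusted p 0.13) and PSMB9, whose gene lies beside TAP1, one of -0.17 (adjusted p 0.691).

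None of the 9 loading chaperones and export genes was called by edgeR, with a median of -0.149 and 1 higher and 1 lower at an unadjusted p under 0.05. CALR, the calreticulin of the peptide-loading complex, had a log2 fold change of -0.15 (edgeR adjusted p 0.413), and CANX, the calnexin that folds free heavy chains, one of -0.17 (adjusted p 0.397). TAPBPL, a tapasin relative that edits peptides outside the loading complex and was named after its values were seen, had 9.80, 9.64 and 8.85 CPM in U87MG-control and 13.9, 11.9 and 15.4 CPM in U87MG-LMO2. Its groups did not overlap, and its edgeR adjusted p was 0.0592 at a log2 fold change of 0.54.

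The 16 transcription regulators, among them the RFX, NF-Y and CREB/ATF partners of NLRC5 and the interferon and NF-kB factors, had a median of 0.039 and no edgeR call. At an unadjusted p under 0.05, 0 were higher and 2 lower, and DESeq2 and limma called 0. RELA, the p65 subunit of NF-kB, had a log2 fold change of 0.03 (edgeR adjusted p 0.852) and STAT2 one of 0.02 (adjusted p 0.962). Of the 7 interferon receptors and kinases none was called by edgeR, DESeq2 or limma, the median was -0.16, and 1 was higher and 2 lower at an unadjusted p under 0.05. TYK2 had a log2 fold change of 0.29 (edgeR adjusted p 0.17) and JAK1 one of -0.04 (adjusted p 0.796).

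The class I-like genes and ligands of natural killer receptors had 11 tested of 13 listed, with a median of -0.017. HFE is a class I-like protein that pairs with β2-microglobulin and controls iron uptake. HFE was the 1 gene of this list called lower by edgeR, against 2.75% of the tested genes. It had 24.4, 24.3 and 19.6 CPM in U87MG-control and 16.2, 13.8 and 15.0 CPM in U87MG-LMO2. The groups did not overlap (log2 fold change -0.60, SE 0.14, edgeR adjusted p 0.0369). The HFE call was lost when any library other than U87MG-LMO2 replicate 3 was left out, with adjusted p up to 0.139.

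**Figure D5:**
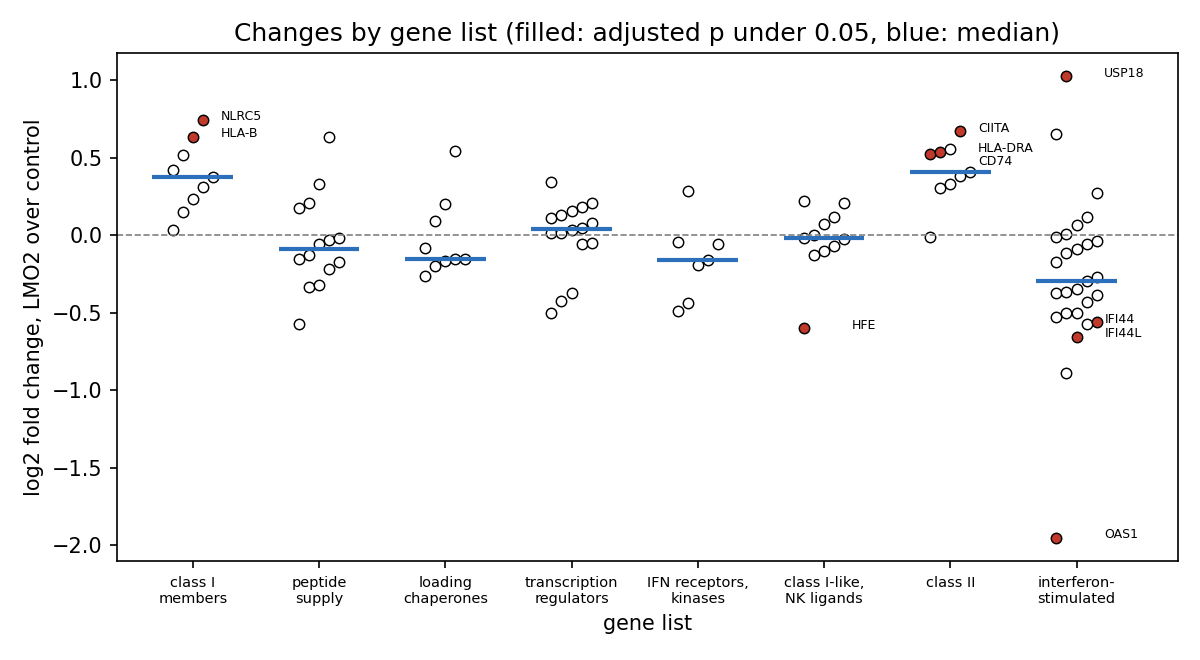
Log2 fold change, U87MG-LMO2 over U87MG-control, of each tested gene in the 9 class I genes and in the 7 other gene lists, with a bar at the median and filled points for an edgeR adjusted p under 0.05. The medians of the class I genes (0.38) and the class II genes (0.41) lie above 0, and that of the interferon-stimulated genes (-0.295) lies below it.

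Interferon-stimulated genes, which commonly rise together with class I genes when cells meet interferon, had a median log2 fold change of -0.295 over 27 tested of 30 listed, with 1 called higher and 3 called lower by edgeR, against 4.72% and 2.75% of the tested genes. OAS1, a sensor of viral RNA, had 4.42, 3.36 and 3.48 CPM in U87MG-control and 0.61, 0.682 and 1.57 CPM in U87MG-LMO2 (log2 fold change -1.95, edgeR adjusted p 0.0184). IFI44L (-0.66, edgeR adjusted p 0.0368) and IFI44 (-0.56, adjusted p 0.0473) fell as well. USP18, which removes ISG15 from proteins and damps interferon signalling, rose from 2.69 ± 0.685 to 5.52 ± 1.25 CPM (log2 fold change 1.03, edgeR adjusted p 0.047). After the GC correction OAS1 was still called, at -1.93 (edgeR adjusted p 0.0206), while IFI44L (-0.39, adjusted p 0.245), IFI44 (-0.33, adjusted p 0.105) and USP18 (1.01, adjusted p 0.0562) were not. The calls of OAS1 and IFI44 were lost when any control library or U87MG-LMO2 replicate 1 was left out, and those of IFI44L and USP18 when any library other than U87MG-LMO2 replicate 3 was left out, with edgeR adjusted p up to 0.163.

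The genes whose CPM followed these genes most closely over the 6 libraries were found among 15217 tested genes with a mean of at least 1 CPM, by the root-mean-square difference of centred log2 CPM. CCDC92 (0.015), AGTR1 (0.039) and LOC103171574 (0.049) were nearest to HLA-B. OSBPL2 (0.026), DCAF10 (0.027) and RAB2B (0.033) were nearest to B2M, and ATXN2 (0.032), SFR1 (0.035) and PCNX2 (0.04) to TAP1. With 6 libraries and this many genes, likeness of this size is a description only.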

How the data were processed

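RNA of U87MG-control (n = 3) and U87MG-LMO2 (n = 3) was sequenced at BGI. For each library the authors deposited expected counts (estimated reads per gene, not normalized, not whole) and FPKM values with a gene length. The submitters' processing notes name Bowtie2, BWA and build GRCh38.p12. The counting program is not given in the sources used here, and strand was not stated. The authors' comparison table (group means, log2 ratio, direction, probability) was used only to check that the libraries' FPKM gave its means. This failed for 134 genes because the table of U87MG-LMO2 replicate 3 had 3 damaged lines, and these genes were left out. RefSeq symbols matched 89.6% of genes.

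Expected counts were rounded and tested with edgeR 4.0.16 in R 4.3.3 (filterByExpr, TMM, glmQLFit and glmQLFTest, 2-sided). P-values were adjusted by Benjamini-Hochberg over 16092 genes, with calls under 0.05. CPM used TMM-adjusted library sizes. Intervals are 95%. Ratios were tested by exact permutation over libraries. The test scripts were tested on simulated data. The members and gene lists were chosen with earlier results of these data known. Genes named are the 9 members, LMO2, up to 4 called genes per list and otherwise the 2 most abundant, and the 3 nearest patterns. Other genes are marked as named after their values were seen. Alternatives were no filter, at least 10 counts in every library, upper-quartile normalization, DESeq2 1.42.0, limma 3.58.1 on log2(FPKM + 1) and log2(FPKM + 0.1), each library left out in turn, a block for replicate number, a GC correction (lowess, span 0.3, GENCODE v29 transcripts, 89.9% of tested genes) and damaged genes at 0. Those for the class II and interferon-stimulated lists and HFE, and the GC-corrected ratio, were added after seeing the data.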

Additional observations from a re-analysis of the deposited data

How the results depend on the processing

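The replicate numbers did not pair the libraries (correlations of same-numbered deviations -0.117, -0.00342 and -0.0407), so the fit with the replicate number as a block is given here only. With the block, members called higher went from 2 to 1, other pathway genes called lower from 1 to 0, class II genes called higher from 3 to 1, interferon-stimulated genes called higher from 1 to 0 and lower from 3 to 1, and the summed heavy chains had a log2 fold change of 0.54 (adjusted p 0.0845). With the GC correction, 1 member was called higher, 0 interferon-stimulated genes higher and 1 lower, and the summed heavy chains were at 0.34 (adjusted p 0.142). Their log2 fold change was 0.52 with limma on log2(FPKM + 1), 0.52 on log2(FPKM + 0.1) and 0.53 with damaged genes at 0, with adjusted p of 0.0514, 0.0514 and 0.0551, and under each of these settings 0 interferon-stimulated genes were called higher. DESeq2 called 2 other pathway genes higher and the fit with no filter 1. The causes were not tested. Leaving out 1 library at a time, which leaves fewer samples, gave 0 to 3 members called higher, 0 to 1 other pathway genes higher and 0 to 5 lower, 0 to 4 class II genes higher, and 0 to 1 interferon-stimulated genes higher and 0 to 8 lower. The log2 fold change of the summed heavy chains then ran from 0.43 to 0.66. Without U87MG-LMO2 replicate 3, B2M (-0.0045) and TAP1 (-0.010) had log2 fold changes below 0 and without other libraries they ranged up to 0.086 and 0.28. In the other settings all members stayed above 0. The log2 difference of the heavy chain to B2M ratio ran from 0.40 to 0.56 when 1 library was left out, and was 0.12 (exact permutation p 0.5) in CPM after the GC correction, a setting added after seeing the data. Over all genes, edgeR called 760 higher and 443 lower, 387 and 189 with the block, and from 102 to 1307 higher and 42 to 1102 lower when 1 library was left out. LMO2 was called in each of the 14 settings in which it was tested. HLA-F had the fewest counts of the members, at 4.84 to 8.62 CPM.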
